A study of Mus musculus with 8 samples.

Results

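The genes described here are 9 response genes of the 3 signaling pathways that the culture medium sets in mouse embryonic stem cells (ESCs): *Socs3* for leukemia inhibitory factor (LIF), *Axin2* and *Sp5* for Wnt, and *Dusp6*, *Spry2*, *Spry4*, *Etv4*, *Etv5*, and *Egr1* for fibroblast growth factor (FGF) and extracellular signal-regulated kinase (ERK). They are textbook targets of these pathways and were taken by name, with earlier results of these data known. All 9 were found among the 52550 genes of the count table, and 8 of them, all but *Sp5*, reached at least 1 CPM (count per 1000000 gene reads) in every input, as did 10754 genes in all. Every cell in the experiment was an *Eif4a2* knockout (KO) ESC derived from a Rex1-GFPd2 reporter line, so the control cells lacked the gene as well. EV cells carried the empty vector. FL cells re-expressed Flag-tagged full-length eIF4A2 from a transposon-based vector with the CAG promoter, so its level is not set by the promoter of the gene itself. The paper states that the level of the full-length protein in these cells was close to the endogenous one. That the isoform is the full-length one was taken from the paper, since the labels give only the gene. From each kind of cell an anti-Flag RNA immunoprecipitation (RIP, 3 h with 5 µg of antibody) and its input RNA were sequenced, which gave 4 groups of 2 libraries: input EV, input FL, RIP EV, and RIP FL. RIP EV libraries show what the antibody and beads bring down without Flag-tagged eIF4A2. All cells grew with 15% serum, 10 ng/ml LIF, 1.5 µM CHIR99021, and 0.5 µM PD0325901. According to a legend of the paper, the FL replicates were 2 clones. For EV nothing says whether the replicates came from separate clones or cultures, so p-values may measure technical spread only. The label of RIP FL replicate 2 names *Eif4a3* in 1 field and *Eif4a2* in the others.

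LIF binds a receptor of LIFR and gp130 (*Il6st*), which activates the transcription factor STAT3 through JAK kinases. *Socs3* is a STAT3 target whose protein inhibits that receptor. CHIR99021 inhibits GSK3, the kinase that marks β-catenin for destruction, so that β-catenin accumulates and turns on targets with TCF/LEF factors. *Axin2*, which encodes a scaffold of the destruction complex, and *Sp5*, which encodes a zinc finger transcription factor, are common readouts. PD0325901 inhibits MEK1/2, the kinases that activate ERK, and thereby holds back the ERK targets. Of these, *Dusp6* encodes a phosphatase that switches ERK off, *Spry2* and *Spry4* encode Sprouty inhibitors of receptor signaling, *Etv4* and *Etv5* encode ETS transcription factors, and *Egr1* encodes an immediate early zinc finger factor. Flag-eIF4A2 is an RNA helicase of translation initiation, so its RIP addresses which mRNAs it contacts.

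The libraries held between 2044853 (RIP EV replicate 1) and 11206420 (RIP FL replicate 1) reads on genes. Each QuantSeq read comes from the 3′ end of an mRNA, so CPM values were not corrected for length. The reads were amplified by PCR and carry no molecular identifiers, so a read is not 1 molecule. The RIP EV libraries stood apart. Of the 10754 tested transcripts they had at least 1 read on 6086 and 8200, and 1961 transcripts (18.2%) had 0 reads in both, while the biological coefficient of variation within the group was 171%, compared with 23.1% to 30.1% in the other groups. All 10 ESC markers had at least 1 CPM in each input, and all 5 primitive endoderm markers lay under 1 CPM. Of the other marker lists, 1 of 5 trophoblast genes (*Tfap2c*, 156 to 240 CPM), 3 of 5 formative and primed epiblast genes (*Otx2*, *Pou3f1*, and *Dnmt3a*), 3 of 4 neural genes (*Sox1*, *Nes*, and *Tubb3*, the last at 475 to 615 CPM), and 1 of 6 fibroblast genes (*Vim*) also reached 1 CPM in each input. *Eif4a2* itself had 53.8 and 94.2 CPM in input EV versus 86.8 and 69.1 CPM in input FL. Tags at the 3′ end do not show whether the edited part of the gene is present, so they do not check the KO. In libraries made from many cells, fewer cells that express a gene and less of its RNA per cell cannot be told apart.

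The promoters of *Sp5* and *Socs3* are shown because they were the ones in which a short motif of their pathway's factor was found. RefSeq (GRCm38.p6) gives a window of 250 bases before to 50 bases after the start site for 6 of the 9 genes (*Sp5*, *Dusp6*, *Axin2*, *Socs3*, *Spry2*, and *Etv5*). The windows were searched on both strands for the TCF/LEF motif CTTTGAT, the STAT motif TTCNNNGAA, the ETS motif CCGGAAG, and the CArG box bound by SRF. The *Sp5* window (chr2:70474673-70474972, plus strand) holds 1 TCF/LEF match that starts 104 bases before the start site, a motif held by 3.73% of all 32851 windows. The *Socs3* window (chr11:117969317-117969616, minus strand) holds 1 STAT match that starts 154 bases before the RefSeq start site, a motif held by 8.30% of all windows. GENCODE extends *Socs3* further upstream, to chr11:117970047, so this window and its match lie inside the gene as annotated there. The ETS motif and the CArG box (8.86% and 1.63% of all windows) have no match in the windows of the 6 genes. A match is a run of letters and no evidence of binding. Capitals mark the match.
Sp5: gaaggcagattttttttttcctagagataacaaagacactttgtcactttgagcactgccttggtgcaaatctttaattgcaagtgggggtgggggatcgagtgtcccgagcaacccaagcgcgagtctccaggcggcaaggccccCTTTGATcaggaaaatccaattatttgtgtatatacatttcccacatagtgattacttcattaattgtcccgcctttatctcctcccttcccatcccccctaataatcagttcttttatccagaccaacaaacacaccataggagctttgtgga
Socs3: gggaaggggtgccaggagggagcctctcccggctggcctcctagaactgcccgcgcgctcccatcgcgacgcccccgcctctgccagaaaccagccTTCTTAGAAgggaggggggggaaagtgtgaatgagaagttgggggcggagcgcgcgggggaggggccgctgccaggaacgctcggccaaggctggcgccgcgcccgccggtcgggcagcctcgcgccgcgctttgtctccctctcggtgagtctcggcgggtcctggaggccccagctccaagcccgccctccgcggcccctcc

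Among the inputs the ERK targets covered the widest range. *Etv4* stood first of the 9 in input EV, with 341 and 347 CPM, followed by *Spry2* with 147 and 128 CPM. *Etv5* (97.1 and 65.8 CPM) and *Dusp6* (67.8 and 45.6 CPM) came next and overlapped each other. *Socs3* had 17.3 and 18.1 CPM, *Spry4* 13.1 and 9.05 CPM, *Axin2* 5.91 and 14.4 CPM, *Egr1* 4.81 and 5.62 CPM, and *Sp5* 3.44 and 4.68 CPM. Besides *Etv5* and *Dusp6*, the only neighbors in this order with overlapping libraries were *Spry4* and *Axin2*. The order was nearly the same in input FL, except that *Etv5* stood above *Spry2* and overlapped *Etv4*.

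**Figure D1:**
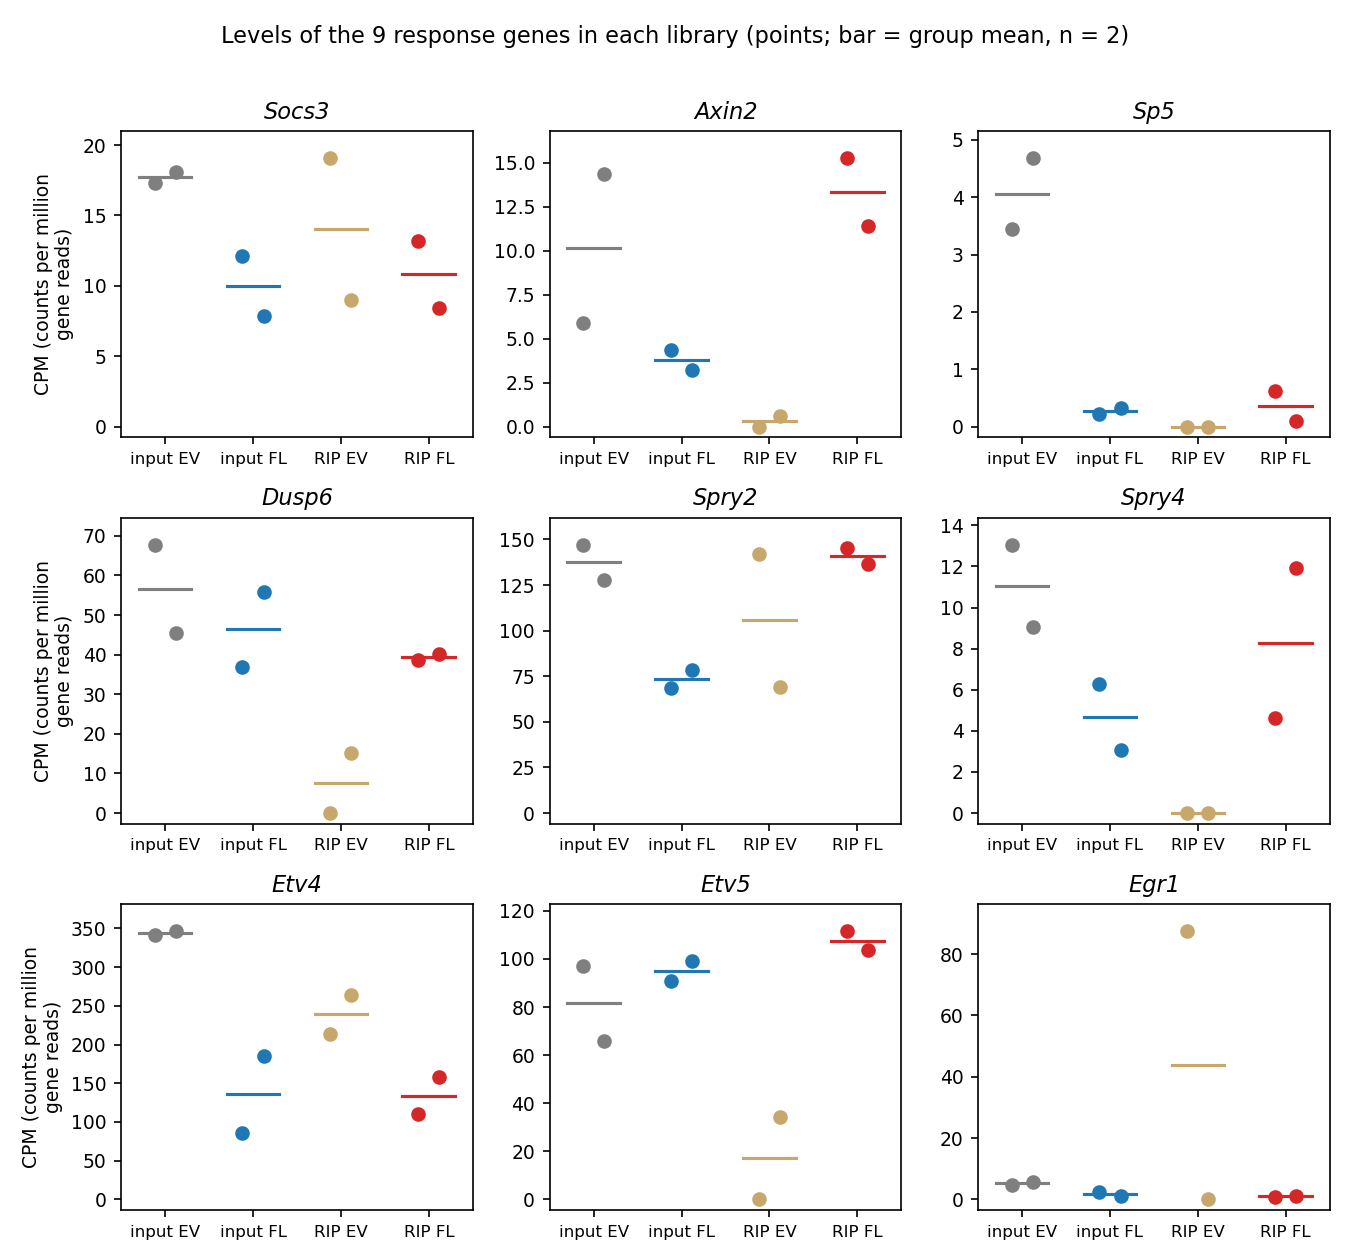
CPM of each response gene (y axis, linear, scaled per gene) in the 8 libraries, with 1 point per library and a bar for the mean of the 2 libraries of a group. *Sp5* sits between 0.22 and 0.32 CPM in input FL and between 3.44 and 4.68 CPM in input EV, *Spry4* is at 0 in both RIP EV libraries, and *Egr1* is high in 1 library, RIP EV replicate 1 (87.5 CPM).

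Input FL was compared with input EV to see how the response genes differed between KO ESCs with and without re-expressed eIF4A2. Of the 8 tested, 6 lay lower in both FL inputs than in both EV inputs by CPM (*Socs3*, *Axin2*, *Spry2*, *Spry4*, *Etv4*, and *Egr1*), an order found for 17.3% of all tested transcripts, and so did *Sp5*. None passed the test. In edgeR's quasi-likelihood fit with Benjamini-Hochberg adjustment, 0 of the 8 and 0.0% of all transcripts were called lower, while 75 transcripts lay higher and 59 lower at p under 0.05 before adjustment. By DESeq2 on all 8 libraries it was 11 transcripts higher and 2 lower, with no member among them. In edgeR's fit of all 8 libraries the median log2 fold change was −1.07 over the 8 members and 0.01 over all transcripts. By edgeR on the 4 inputs alone, which leaves RIP EV out of the shared spread, 0 transcripts passed in either direction. There 402 transcripts lay higher and 394 lower at p under 0.05 before adjustment. For the 6 members that lay lower, the unadjusted p ran from 0.00303 (*Etv4*) to 0.0848 (*Socs3*) and the adjusted p from 0.625 to 0.719. Summed over the 9 genes, the level was 668 ± 42.2 CPM (SD, n = 2) in input EV and 371 ± 89.0 CPM (SD, n = 2) in input FL.

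Both Wnt targets were among the genes that lay lower. *Sp5* had 25 and 15 reads (3.44 and 4.68 CPM) in input EV and 1 and 2 reads (0.22 and 0.32 CPM) in input FL. The EV level was 13.8 times the FL level over the pooled reads (95% exact interval 4.40 to 69.8, for counting error only). It did not reach 1 CPM in the FL inputs and so was not among the transcripts tested. With edgeR's filterByExpr in place of this limit, its log2 fold change was −3.77 (SE 0.99, unadjusted p = 0.0101, adjusted p = 1.0 by Benjamini-Hochberg). Only in input EV did *Sp5* lie above 1 CPM, so it passed that filter through the group where it is high. The unadjusted p therefore gives no support for a difference. *Axin2* had 5.91 and 14.4 CPM in input EV versus 4.33 and 3.21 CPM in input FL. The 2 FL libraries lay close together, while the 2 EV libraries differed more from each other than the lower of them did from the FL libraries, and the log2 fold change was −1.37 (SE 0.81, adjusted p = 1.0). It ran from −1.83 to −0.71 with 1 of the 4 inputs left out, the latter without input EV replicate 2.

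*Etv4* had the lowest unadjusted p of the ERK targets in this comparison. It had 341 and 347 CPM in input EV versus 86.3 and 185 CPM in input FL, so that the FL libraries differed from each other by over 2 times while the EV libraries nearly coincided. The log2 fold change was −1.34 (SE 0.42, unadjusted p = 0.0168, adjusted p = 1.0), and it ran from −1.96 without input FL replicate 2 to −0.91 without input FL replicate 1. *Spry2* had 147 and 128 CPM in input EV versus 68.4 and 78.4 CPM in input FL, with a log2 fold change of −0.90 (SE 0.44, unadjusted p = 0.0803). Its replicates lay close together in both groups. *Spry4* had 13.1 and 9.05 CPM in input EV versus 6.28 and 3.05 CPM in input FL, and *Egr1* had 4.81 and 5.62 CPM and 2.38 and 1.12 CPM. Their log2 fold changes were −1.25 (SE 0.78) and −1.55 (SE 2.03). By edgeR on the 4 inputs alone the SE of *Egr1* was 0.60. *Dusp6* (67.8 and 45.6 CPM, then 37.0 and 55.9 CPM) and *Etv5* (97.1 and 65.8 CPM, then 90.9 and 99.1 CPM) overlapped between the groups, and the log2 fold change of each changed sign when 1 input EV library was left out. Of the 6 ERK targets, 4 thus lay lower in both FL inputs and 2 overlapped. *Socs3*, the LIF target, had 17.3 and 18.1 CPM in input EV versus 12.1 and 7.87 CPM in input FL, with a log2 fold change of −0.81 (SE 0.72).

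RIP FL was compared with input FL to see which of these mRNAs were more or less frequent beside Flag-eIF4A2 than in the cells. *Axin2* stood out among the members by the size of its difference. It had 15.3 and 11.4 CPM in RIP FL (171 and 114 reads) versus 4.33 and 3.21 CPM in input FL (20 and 20 reads), a log2 fold change of 1.51 (SE 0.81, adjusted p = 0.718 by edgeR's fit of all 8 libraries). It passed when only the 4 FL libraries entered the fit, with an adjusted p of 0.0385 by edgeR and 0.0340 by DESeq2. *Axin2* was the only member called higher in these fits, beside 908 of all 10754 tested transcripts (8.44%) by edgeR and 997 by DESeq2. Its log2 fold change stayed between 1.29 and 1.77 with any of these 4 libraries left out. *Spry2* had 145 and 137 CPM in RIP FL versus 68.4 and 78.4 CPM in input FL, with a log2 fold change of 0.64 (SE 0.43, adjusted p = 0.845). *Etv5* had 112 and 104 CPM in RIP FL versus 90.9 and 99.1 CPM in input FL. By CPM these 3 of the 8 tested genes lay above input in both RIP libraries, as did 45.8% of all tested transcripts. For *Etv5* that order depended on the scaling, since its log2 fold change was −0.12 with TMM factors and 0.18 with library size alone, where TMM factors placed the median of all transcripts at 0.02.

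The other members overlapped between RIP FL and input FL. *Etv4* had 110 and 158 CPM in RIP FL, *Dusp6* 38.5 and 40.3 CPM, *Spry4* 4.64 and 11.9 CPM, *Socs3* 13.2 and 8.42 CPM, and *Egr1* 0.89 and 1.20 CPM. Their log2 fold changes against input FL ran from −1.03 (*Egr1*) to 0.53 (*Spry4*). *Sp5* had 7 and 1 reads in RIP FL versus 1 and 2 in input FL, too few to show a difference at this depth (ratio 1.37, 95% exact interval 0.33 to 7.99). In the fit of all 8 libraries 0 of the 8 members passed, as did 0.0% of all transcripts in the upward direction and 6 transcripts in the downward one. The median log2 fold change was −0.16 over the members and 0.02 over all transcripts.

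**Figure D2:**
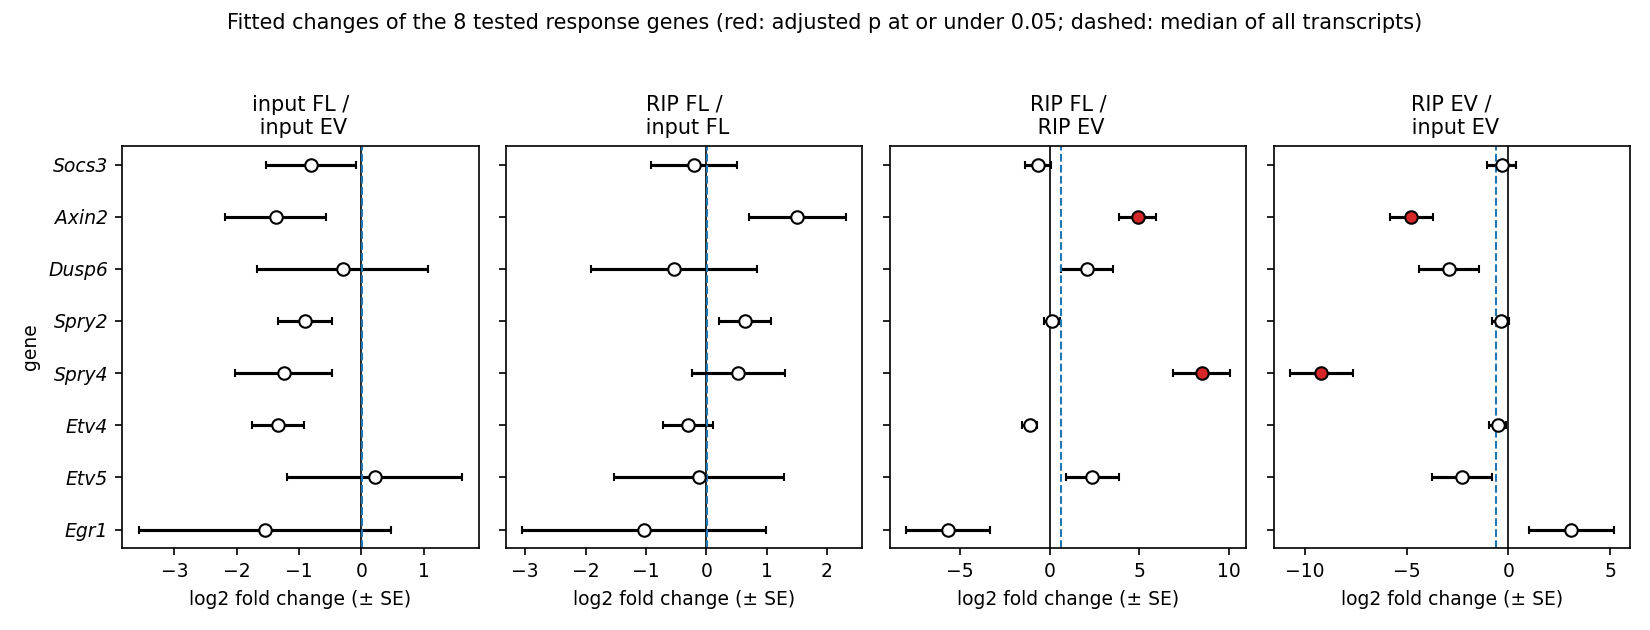
Log2 fold change (x axis, with its SE as the bar) of the 8 tested response genes in 4 comparisons by edgeR's fit of all 8 libraries; red points have an adjusted p at or under 0.05 and the dashed line is the median of all tested transcripts. The x axes differ in scale. *Axin2* and *Spry4* are red in both comparisons that involve RIP EV, where the values of *Spry4* are fitted against 0 reads and are no measured fold.

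RIP FL was compared with RIP EV to separate what came down with Flag-eIF4A2 from what came down without it. *Axin2* and *Spry4* were higher in RIP FL, and 0 members were lower. These 2 of 8 compare with 24.8% of all tested transcripts called higher and 5.46% called lower. *Axin2* had 0 and 2 reads in RIP EV (0 and 0.60 CPM) versus 171 and 114 reads in RIP FL (15.3 and 11.4 CPM), a pooled ratio of 36.3 (95% exact interval 9.95 to 301) and a log2 fold change of 4.92 (SE 1.05, adjusted p = 0.0133 by edgeR). All of its RIP EV reads lay in replicate 2, and the log2 fold change was 4.19 without replicate 1. Without replicate 2 it was fitted against 0 reads, and *Axin2* was at least 9.17-fold higher by the floor of replicate 1 (1.47 CPM). Without RIP FL replicate 1 the adjusted p was 0.0504. *Spry4* had 0 reads in both RIP EV libraries and 52 and 119 reads in RIP FL (4.64 and 11.9 CPM). Against a floor of 3 counts over both RIP EV libraries (0.557 CPM) it was at least 14.5-fold higher (adjusted p = 0.0116 by edgeR). This limit was 9.0 and 5.50 without RIP EV replicates 1 and 2, and 21.4 and 8.34 without RIP FL replicates 1 and 2. Neither passed in an edgeR fit of just the 4 RIP libraries (adjusted p = 0.113 for *Axin2* and 0.0710 for *Spry4*).

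These calls are to be read beside the many transcripts without reads in RIP EV. Of the 1961 transcripts with 0 reads in both RIP EV libraries, the class of *Spry4*, 93.2% were called higher in RIP FL. Of the 2707 with 0 reads in replicate 1 and reads in replicate 2, the class of *Axin2*, *Dusp6*, and *Etv5*, it was 12%. *Dusp6* had 0 and 15.2 CPM in RIP EV versus 38.5 and 40.3 CPM in RIP FL, a log2 fold change of 2.09 (SE 1.45, adjusted p = 0.353). *Etv5* had 0 and 34.1 CPM in RIP EV versus 112 and 104 CPM in RIP FL, a log2 fold change of 2.38 (SE 1.49, adjusted p = 0.301). For both genes 1 RIP EV library was empty while the other held 51 and 114 reads, so 0 reads in 1 RIP EV library did not mean a low level in the other, and limits from 0 reads do not cover this spread. Without RIP EV replicate 1, *Dusp6* and *Etv5* were called higher, with log2 fold changes of 1.12 (adjusted p = 0.0463) and 1.41 (adjusted p = 0.00978), and *Etv4* was called lower, with −1.22 (adjusted p = 0.0252). In that fit 41.5% of all tested transcripts were called higher and 18.2% lower, and the spread of the lone RIP EV library was taken from the other groups.

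*Sp5* had 0 reads in both RIP EV libraries and 7 and 1 reads in RIP FL (0.62 and 0.10 CPM), which is under the floor of RIP EV when pooled (0.378 against 0.557 CPM), so no fold is given. The other members did not lie above RIP EV in both libraries. *Spry2* had 142 and 69.4 CPM in RIP EV versus 145 and 137 CPM in RIP FL, and *Socs3* had 19.1 and 8.97 CPM and 13.2 and 8.42 CPM. Both overlapped between the groups, with log2 fold changes of 0.13 (SE 0.43) and −0.67 (SE 0.72). *Etv4* was the member whose RIP FL libraries both lay below RIP EV, an order found for 12.1% of tested transcripts, with 214 and 264 CPM in RIP EV versus 110 and 158 CPM in RIP FL. Its log2 fold change was −1.11 (SE 0.42, adjusted p = 0.0959), and it had the same order in the inputs (above). *Egr1* had 179 reads (87.5 CPM) in the first RIP EV library, none in the second, and 10 and 12 reads in RIP FL. Its log2 fold change of −5.66 (SE 2.35, adjusted p = 0.126) rested on RIP EV replicate 1. Without it, RIP EV had 0 reads and *Egr1* was at least 1.16-fold higher in RIP FL by the floor of replicate 2 (0.897 CPM). DESeq2 on all 8 libraries called it lower all the same (adjusted p = 0.0124). The same library held the highest level of the fibroblast marker *Vim* (292 CPM, compared with 28.8 to 79.0 CPM in the other 7 libraries), while *Col3a1* and *Postn* were at 0 in all 8. The 6 fibroblast markers summed to 293 CPM in this library, nearly all of it *Vim*, with *Col1a2* at 0.98 CPM and *Col1a1* and *Thy1* at 0. The sum was 41.0 CPM in the other RIP EV library and 33.6 to 85.8 CPM in the rest. *Pou3f1*, from the formative and primed list, was also high in this library (61.6 CPM) and at 0 in the other RIP EV library. The part of these genes in the *Egr1* value was not tested. By CPM, 4 of the 8 tested members lay above RIP EV in both RIP FL libraries, compared with 51.9% of all tested transcripts. The median log2 fold change was 1.11 over the members and 0.64 over all transcripts.

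RIP EV was compared with input EV as the background of the antibody and beads. *Axin2* and *Spry4* were lower in RIP EV than in input EV (adjusted p = 0.0154 and 0.00954 by edgeR), compared with 26.3% of all tested transcripts. *Axin2* had 43 and 46 reads in input EV versus 0 and 2 in RIP EV, a pooled ratio of input over RIP of 22.9 (95% exact interval 6.16 to 192). Without input EV replicate 2 its adjusted p was 0.0602. *Spry4* had 95 and 29 reads in input EV and was at least 21.3-fold lower in RIP EV, a limit of 13.2 and 8.07 without RIP EV replicates 1 and 2. *Sp5*, with 25 and 15 reads in input EV and 0 in both RIP EV libraries, was at least 6.86-fold lower, and the limit was 4.26 and 2.60 without these replicates. By edgeR on the 4 EV libraries alone, *Axin2* and *Spry4* did not pass (adjusted p = 0.133 and 0.0798). In both RIP EV libraries 5 of the 8 tested members lay below both inputs by CPM (*Axin2*, *Dusp6*, *Spry4*, *Etv4*, and *Etv5*), as did 44.9% of all tested transcripts. *Socs3*, *Spry2*, and *Egr1* overlapped.

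The change from input to RIP was also compared between FL and EV cells in 1 test. It differed for *Axin2*, by 6.29 on the log2 scale (SE 1.33, adjusted p = 0.0202), and for *Spry4*, by 9.73 (SE 1.82, adjusted p = 0.0191), the latter fitted against 0 reads in RIP EV and therefore no measured fold. These 2 of 8 compare with 19.2% of all tested transcripts. For *Axin2* the mean CPM of the RIP was 3.54 times that of the input in FL cells and 0.030 times in EV cells. For *Spry4* it was 1.78 times in FL cells, and in EV cells the RIP was at 0. For *Socs3* the values were 1.08 and 0.79, for *Etv4* 0.99 and 0.70, and for *Spry2* 1.92 and 0.77. For *Dusp6* they were 0.85 and 0.13 and for *Etv5* 1.13 and 0.21, where RIP EV replicate 2 alone held the RIP EV reads. For *Egr1* they lay the other way, at 0.60 in FL and 8.39 in EV cells, the latter from reads of RIP EV replicate 1 alone. The adjusted p of the 6 other tested members ran from 0.348 (*Spry2*) to 0.967 (*Socs3*). Both calls were lost when a RIP FL library, an input FL library, or input EV replicate 1 was left out, and that of *Axin2* also without input EV replicate 2, with adjusted p of up to 0.102 for *Axin2* and 0.0741 for *Spry4*.

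Other genes of the 3 pathways were counted over lists of receptors, kinases, and targets. In input FL against input EV and in RIP FL against input FL, 0 of the 20 tested LIF and STAT3 genes, 0 of the 25 tested Wnt genes, and 0 of the 34 tested FGF and ERK genes passed by edgeR's fit of all 8 libraries. With edgeR on the 4 FL libraries alone, 4 LIF and STAT3 genes and 6 Wnt genes were higher in RIP FL than in input FL, and 3 FGF and ERK genes were lower, with 0 of each list called in the other direction. In that fit 8.44% of all tested transcripts were higher and 8.46% lower. Against RIP EV, 1, 8, and 6 of them were higher and 0 were lower in RIP FL, beside 24.8% and 5.46% of all tested transcripts. The counts higher were 6, 17, and 11 without RIP EV replicate 1 (41.5% of all transcripts), 12, 18, and 21 without RIP EV replicate 2 (58.1%), 1, 4, and 4 without RIP FL replicate 1, and 1, 5, and 4 without RIP FL replicate 2. Each was 0 by edgeR on the 4 RIP libraries alone. The counts lower were 1, 1, and 2 without RIP EV replicate 1 (18.2% of all transcripts) and 2, 3, and 1 without RIP EV replicate 2 (16.2%). They were 1, 0, and 0 by DESeq2 on 8 libraries, 0, 1, and 1 without a filter, and 0, 0, and 1 without RIP FL replicate 2. With 1 input library left out the Wnt count was 5. The median log2 fold changes of the lists against RIP EV were 0.56, 1.54, and 0.60, compared with 0.64 over all transcripts. Those named by the size of their change all had 0 reads in both RIP EV libraries, a class of which 93.2% were called higher. In the LIF list this was the kinase gene *Jak2*, with 146 and 157 reads in RIP FL (at least 25.7-fold higher). In the Wnt list these were *Notum*, which encodes a secreted Wnt inhibitor, the target *Cdx1*, and the receptor gene *Fzd2* (at least 20.9-fold, 15.9-fold, and 12.5-fold higher). In the ERK list these were *Spred1*, which encodes an inhibitor of RAS signaling, *Phlda1*, and the ETS factor gene *Etv1* (at least 56.7-fold, 38.3-fold, and 8.57-fold higher). Without RIP EV replicates 1 and 2 the floor is 1.61 and 2.64 times higher, which lowers each of these limits as much. Without RIP FL replicate 1 the limits of *Notum* and *Fzd2* were 9.36 and 6.66. Against input FL none of these genes passed by edgeR's fit of all 8 libraries. Their log2 fold changes there were −1.03 (*Phlda1*), −0.91 (*Etv1*), and −0.72 (*Fzd2*), and from 0.25 (*Jak2*) to 1.99 (*Notum*) for the others. In RIP EV against input EV, 1, 7, and 8 genes of the lists were lower, beside 26.3% of all tested transcripts, and 0 were higher, with *Fzd3* among the lower ones (at least 10.1-fold). The counts lower were 4, 14, and 11 without RIP EV replicate 1, 12, 15, and 25 without RIP EV replicate 2, and 1, 3, and 4 without either input EV library, and the Wnt count was 4 or 5 without an FL library. Without RIP EV replicates 1 and 2, 1, 3, and 2 and 4, 4, and 1 genes were higher.

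Of 11 receptors and signal carriers, 3 were higher in RIP FL than in RIP EV, near the share of 24.8% of all tested transcripts. *Gsk3b*, 1 of the 2 genes for the target of CHIR99021, had 10.8 and 3.29 CPM in RIP EV versus 52.8 and 102 CPM in RIP FL (log2 fold change 3.19, SE 0.81, adjusted p = 0.0262), while *Gsk3a* had 0 and 115 CPM and 64.7 and 60.2 CPM. *Map2k1*, which encodes a target of PD0325901, had 11.7 and 12.3 CPM in RIP EV versus 77.3 and 69.5 CPM in RIP FL (log2 fold change 2.33, SE 0.47, adjusted p = 0.0110), while *Map2k2*, the gene of the other MEK kinase, had 125 and 81.9 CPM and 117 and 133 CPM (log2 fold change −0.01, SE 0.37). *Ctnnb1*, which encodes β-catenin, had 183 and 461 CPM in RIP EV versus 1319 and 948 CPM in RIP FL (log2 fold change 1.54, SE 0.46, adjusted p = 0.0454). The calls of *Gsk3b* and *Ctnnb1* were lost when any input or RIP FL library was left out (adjusted p of up to 0.130 and 0.166), that of *Ctnnb1* also with the replicate number as a block (adjusted p = 0.0836), and that of *Map2k1* without RIP FL replicate 1 (adjusted p = 0.0585). None of these 3 passed by edgeR on the 4 RIP libraries (adjusted p = 0.146, 0.173, and 0.130 for *Gsk3b*, *Ctnnb1*, and *Map2k1*). The receptor genes *Lifr*, *Il6st*, and *Fgfr1* and the genes *Stat3*, *Tcf7l1*, and *Mapk3* did not pass by edgeR on all 8 libraries, with log2 fold changes from −1.22 (*Stat3*) to 2.29 (*Lifr*). DESeq2 on all 8 libraries called *Stat3* lower (adjusted p = 0.0279) and *Fgfr1* higher (adjusted p = 0.0157), and edgeR with library size alone called *Fgfr1* higher (adjusted p = 0.0404). Without RIP EV replicates 1 and 2 the log2 fold change was 1.16 and 2.46 for *Fgfr1* and −0.65 and −1.51 for *Stat3*. For *Mapk3* it was 1.37 and 0.78, and for *Tcf7l1* −0.35 and −0.12. For *Lifr* it was 1.33 and 10.9, and for *Il6st* −0.54 and 9.76. The second value of *Lifr* and of *Il6st* is fitted against 0 reads and is no measured fold. In the inputs the 11 ran from −0.69 (*Stat3*) to 0.62 (*Ctnnb1*), none past the threshold (adjusted p = 1.0 for each by edgeR).

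**Figure D3:**
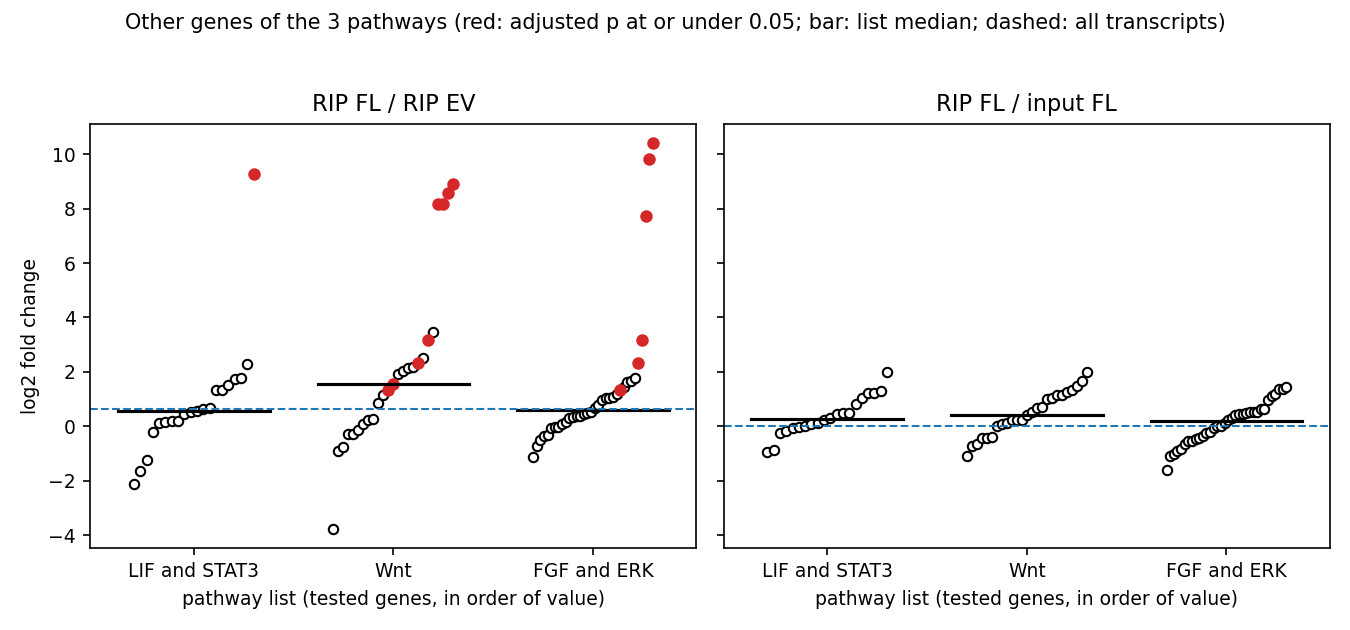
Log2 fold change (y axis) of every tested gene of the LIF and STAT3, Wnt, and FGF and ERK lists, 1 point per gene in order of its value, against RIP EV and against input FL; red points have an adjusted p at or under 0.05, bars are list medians, and the dashed line is the median of all tested transcripts. The points above 7 against RIP EV are genes with 0 reads in both RIP EV libraries, fitted and not measured folds; none is red against input FL.

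The mRNAs of the members share some features of length. In the GENCODE annotation, taking for each gene the transcript with the longest coding sequence, 8 of the 9 had a 5′ untranslated region longer than the median of 173 bases over 10032 expressed coding genes, from 283 bases in *Spry2* to 1666 bases in *Egr1*. *Etv5* was the exception with 32 bases. The GC content of this region was at or below the median of 65.5% in 6 of the 9, *Spry2* at 51.9% among them, and above it in *Socs3* (70.5%), *Etv4* (68.6%), and *Egr1* (67.2%). The 3′ untranslated region ran from 560 bases in *Sp5* to 3559 bases in *Spry4*, with a median of 982 bases over the expressed coding genes. The AU-rich pentamer ATTTA, known from unstable mRNAs, occurred 7 times in that of *Spry4* and 0 times in that of *Etv4*, with a median of 1. That of *Spry4* is also the longest of the 9. Per kilobase the pentamer occurred 1.97 times in *Spry4* and most often in *Sp5*, with 3.57, compared with a median of 1.2. These are descriptions of the annotation, with no test.

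The transcripts whose levels followed the members most closely over the 8 libraries were found by the root mean square distance of centered log2(CPM + 1) values. The members fell into few like pairs: *Socs3* and *Spry2* lay 0.42 apart and *Dusp6* and *Etv5* 0.48 apart, while *Etv5* and *Egr1* lay 3.84 apart. The nearest transcript of *Axin2* was *Fbxo17* (distance 0.23), which had 3.85 and 12.5 CPM in the inputs of EV cells, 3.25 and 2.73 CPM in those of FL cells, 0 and 0.30 CPM in the RIPs of EV cells, and 8.21 and 9.32 CPM in those of FL cells. The nearest of *Etv5* was *Idh3g* (0.15), that of *Dusp6* was *Fkbp1a* (0.18), that of *Spry2* was *N4bp3* (0.16), and that of *Socs3* was *Fastkd3* (0.13). *Spry4* was nearest to *Gm49342* (0.30), *Etv4* to the lincRNA *Gm17322* (0.30), and *Egr1* to *Ntan1* (0.40), which like *Egr1* was high in RIP EV replicate 1 (140 CPM) and at 0 in replicate 2. *Rgs2*, *Foxr1*, and the lincRNA *1700063H04Rik* lay nearest to the mean profile of the 8 members (0.18 to 0.20).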

How the data were processed

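QuantSeq reads were trimmed by the authors (bbduk), aligned to mm10 (STAR version 2.5.3a), and assigned to genes (HTSeq-count version 0.11.2). They deposited the resulting raw counts of 8 libraries, which carry no normalization. For the annotation release and strandedness of the counting, the sources used here give nothing, so overlapping and antisense genes are uncertain. Gene names came from GENCODE M21, which matched 52403 of 52550 identifiers. The 5 summary lines stayed out of all totals: 19.9% to 68.2% of a library's reads lay on genes, 27.0% to 52.1% aligned more than once, and 3.30% to 45.8% lay outside annotated genes.

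Transcripts that reached 1 CPM in each of the 4 inputs were tested in 1 edgeR fit (version 4.0.16, R version 4.3.3) of 4 group means with TMM factors and quasi-likelihood tests. Benjamini-Hochberg adjustment ran over all 10754 transcripts, and adjusted p-values at or under 0.05 were called. CPM in the text uses the total of gene reads. Ratios of low counts carry exact 95% intervals, and floors are 3 counts over a group; both cover counting error only, as reads carry no molecular identifiers. Over all transcripts, the median log2 fold change in RIP FL was 0.64 relative to RIP EV and 0.02 relative to input FL with TMM, but 0.91 and 0.32 with library size alone.

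Members were always named. From the pathway lists, 11 signal carriers were named (the rule held 1 more, not reported here), and per list and comparison up to 3 genes with the largest change among those past the threshold whose libraries did not overlap. The members and lists were chosen with earlier results of these data known. Alternatives were other scalings, filters, and fits, DESeq2 (version 1.42.0), the replicate number as a block, and leaving out each library. The fitting procedure was tested on simulated data with changes between RIP FL and input FL only, so the comparisons with RIP EV were not covered. Same-numbered libraries of different groups had correlations of deviations from −0.07 to 0.13, so the numbers were not taken to pair them.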

Additional observations from a re-analysis of the deposited data

Results flagged for a closer look

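The change from input to RIP of 2 response genes differed between FL and EV cells when the difference itself was tested by edgeR. These were 2 of the 8 tested members, beside 19.2% of all tested transcripts called higher in the same test. For *Axin2* the difference was 6.29 on the log2 scale (SE 1.33, adjusted p = 0.0202, from 0.0000666 to 0.102 over the alternatives). For *Spry4* it was 9.73 (SE 1.82, adjusted p = 0.0191, from 0.000256 to 0.0741). For each gene the RIP FL libraries were both above the RIP EV ones. *Spry4* had 0 reads in both RIP EV libraries and *Axin2* had 2 reads in 1 of them. Of the transcripts with 0 reads in both, 93.2% were called higher in RIP FL than in RIP EV.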

How the results depend on the processing

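With 2044853 and 3345151 gene reads in RIP EV, the limit for a gene without reads is 0.557 CPM by counting error alone, and the spread between these 2 libraries is not covered by that limit. With 2 libraries per group, calls depended on which libraries shared the spread.

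Transcripts higher and lower in input FL than in input EV were 0 and 0, and 11 and 2 by DESeq2 on 8 libraries, and 12 and 5 by DESeq2 on the 4 compared. Against RIP EV, 2664 higher and 587 lower became 806 higher by DESeq2 on 4 libraries, 0 and 0 by edgeR on 4, 1128 lower by DESeq2 on 8, and 1155 lower without a filter, and ran from 2050 to 6248 higher and from 136 to 1955 lower with 1 library left out. The 2 members higher became 0 by either tool on 4 libraries and 1 to 4 with a library left out. The 0 lower became 1 (*Egr1*) by DESeq2 on 8 libraries and without a filter, and 0 to 1 with a library left out. Against input FL, 0 higher and 6 lower became 274 and 430 by DESeq2 on 8 libraries, 997 and 1098 by DESeq2 on 4, 908 and 910 by edgeR on 4, and 7 and 81 without a filter, and 3 lower by library size alone, DESeq2 size factors, or filterByExpr. They were 0 to 868 higher and 0 to 845 lower with a library left out, and 1 member (*Axin2*) was higher by either tool on 4 libraries. In RIP EV against input EV, 484 higher and 2828 lower became 1075 higher by DESeq2 on 8 libraries, 937 higher without a filter, 305 and 487 by DESeq2 on 4, and 0 and 0 by edgeR on 4, and ran from 90 to 1904 higher and from 2136 to 6482 lower with a library left out. The 2 members lower became 0 by either tool on 4 libraries and 1 to 6 with a library left out, and the 0 higher became 0 to 1. In the difference between FL and EV cells, 2068 higher and 226 lower became 608 lower by DESeq2 and 373 lower without a filter, and ran from 0 to 5806 higher and from 0 to 1337 lower with a library left out. Its 2 members higher ran from 0 to 4 and its 0 lower from 0 to 1.

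Among members, the sign turned in RIP FL against input FL with library size alone for *Socs3* (0.11) and *Etv5* (0.18). With a library left out, log2 fold changes that turned ran from −0.61 to 0.11 (*Dusp6*) and from −0.0945 to 0.62 (*Etv5*) between the inputs. Against RIP EV they ran from −1.01 to 0.0176 (*Socs3*), −0.20 to 0.77 (*Spry2*), and −6.55 to 5.65 (*Egr1*). Against input FL they ran from −0.50 to 0.17 (*Socs3*), −0.29 to 1.17 (*Spry4*), and −0.74 to 0.31 (*Etv4*). In RIP EV against input EV they ran from −1.02 to 0.0565 (*Socs3*) and −8.23 to 4.02 (*Egr1*), and in the difference from −0.20 to 0.83 (*Socs3*), −0.20 to 0.85 (*Etv4*), and −4.98 to 7.23 (*Egr1*). Values of *Egr1* without RIP EV replicate 1 are fitted against 0 reads and are no measured fold. The causes were not tested. The summed level of the 9 genes in RIP FL was 456 CPM on the total of gene reads and 392 CPM on TMM-scaled library sizes. In input FL it was 371 CPM and, on TMM-scaled library sizes, 392 CPM. Of the 11 transcripts most like the members, 7 remained with a pseudocount of 0.1 and 5 with 5.

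The replicate number as a block changed no call of a member but ended that of *Ctnnb1* against RIP EV (adjusted p = 0.0836), and the correlations of same-numbered libraries did not pair them. With the block, 2 transcripts were lower in RIP FL against input FL, 318 higher in RIP EV against input EV, and 134 lower in the difference.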
